A study of Panicum virgatum with 8 samples.

Results

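The miR166 family and the related miR5168 were described from the small RNAs of switchgrass (Panicum virgatum AP13), a tetraploid grass whose chromosomes come as a K and an N copy. Members were the loci whose more abundant arm carried a miRBase name of miR166 or miR5168, and 26 of the 210 loci in the deposited table met this rule. They carried 5 of the 59 distinct miRNA sequences, with 19 loci named miR166 and 7 named miR5168. This list is wider than the set of switchgrass miRNAs that the study accepted. Of the 210 loci, 159 were called miRNA candidate, 34 miRNA-like and 17 bad sequence. Which members belong to the accepted set was not examined here. The table is drawn from 8 small RNA libraries, 1 for each condition, all from AP13 plants, and the stressed plants had been propagated from cuttings. The stressed plants were kept in the cold (24 h at 4 °C), left dry until day 11 or given water again and sampled on day 12, and cold and drought each had a control. For these 5 libraries the labels name above ground tissue and the methods name leaf blades near the top of the plant. The other 3 libraries were from leaf, stem and panicle, with no treatment named. It gives each sequence 1 abundance and names no library, so the conditions could not be compared, no value could be set against the depth of its library, and no value below carries a replicate error. The unit of the abundance is not named, and values under the minimum of the methods occur, so it could not be settled. Differences between values are therefore described without a test.

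miR166 is among the most widely conserved plant miRNAs and guides cleavage of mRNAs for the class III homeodomain-leucine zipper (HD-ZIP III) transcription factors. In Arabidopsis and maize this restricts those factors to the upper side of the leaf, and in Arabidopsis it also shapes vascular tissue and the shoot meristem. A plant miRNA is cut from a hairpin precursor as a duplex with its partner strand, the miRNA*. In Arabidopsis the Argonaute protein AGO10 binds miR166 in preference to other miRNAs, and the pattern of unpaired bases in the duplex takes part in that choice. The names used here are those of the matched miRBase entries from Aegilops tauschii (ata), tomato (sly), Amborella trichopoda (atr), flax (lus), maize (zma) and potato (stu).

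The 5 miRNA sequences are shown because they differ only beyond the seed or by a shift of their ends. They are written 5′ to 3′ in DNA letters, as deposited, with the seed (bases 2 to 8) in capitals:
ata-miR166d-3p: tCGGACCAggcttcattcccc
sly-miR166c-3p: tCGGACCAggcttcattcctc
lus-miR166b: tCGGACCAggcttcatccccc
ata-miR5168-3p: tCGGACCAggcttcaatccct
atr-miR166b: tCTCGGACcaggcttcattcc

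All 5 were 21 nt long and began with T (U in the RNA). Counted from 1 at the 5′ end of ata-miR166d-3p, sly-miR166c-3p differed from it by C20T and lus-miR166b by T17C. The sequence of ata-miR5168-3p differed by T16A and C21T. These 4 sequences thus shared their first 15 bases, the seed CGGACCA among them, and every substitution lay beyond that stretch. The remaining sequence, atr-miR166b, had no substitution but began 2 nt further upstream, which gave it the seed CTCGGAC. By seed the members formed 2 groups, and by name 2 other groups, since miR5168 shares its seed with 3 of the 4 miR166 sequences.

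Most of the abundance in the table belonged to a single sequence. The abundance of ata-miR166d-3p was 185355, which ranked 1 among the 59 miRNA sequences. It was 5562 for ata-miR5168-3p (rank 4), 3577 for atr-miR166b (rank 7), 2536 for sly-miR166c-3p (rank 9) and 1932 for lus-miR166b (rank 11). Thus ata-miR166d-3p accounted for 93.2% of what the members summed to, and the other members stood between 0.0104 and 0.0300 of its level. The members held 70.8% of the total over all 59 sequences, and miR166 alone 68.8%. The substituted and shifted sequences were therefore minor beside ata-miR166d-3p but ranked high among the miRNAs of the table.

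The miR166 family had a summed abundance of 193400, against 42436 for miR168, which targets AGO1 mRNA, and 10152 for miR319, which targets TCP transcription factors in the leaf. These were the families next in order, and the value for miR168 came from 2 loci and that for miR319 from 4. miR5168 followed with 5562, close to the 5551 of miR396, which targets growth-regulating factors. Of the further families chosen here for a role in leaves or meristems, miR164, which targets NAC factors of organ boundaries, had 1826. The value was 337 for miR394, which acts in the shoot meristem of Arabidopsis. It was 121 for miR390, which starts the production of tasiRNAs that target auxin response factors. Families outside this choice stood between miR396 and miR164, namely miR167 at 5435, miR159 at 5182, miR156 at 3469 and miR171 at 2662. No locus was named miR165, the sister of miR166 in Arabidopsis. Family abundance spanned from 4 to 193400 over the 29 families.

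**Figure D1:**
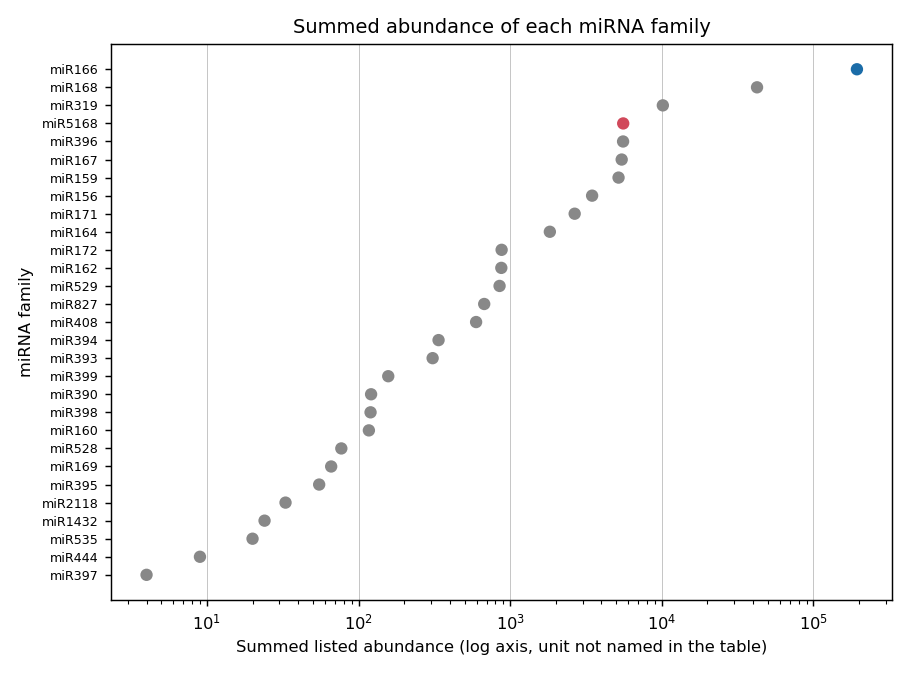
Summed abundance of the distinct miRNA sequences of each of the 29 families (log axis, unit not named in the table), 1 point per family. miR166 (blue) stands at 193400 and miR5168 (red) at 5562, with the other families in grey.

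The abundance of a sequence was the same at each of its loci, so the share of each locus is not known. There were 12 loci for ata-miR166d-3p, 7 for ata-miR5168-3p, 4 for sly-miR166c-3p, 2 for atr-miR166b and 1 for lus-miR166b. Ordered by abundance, the number of loci fell in the same order except that atr-miR166b, with 2 loci, stood above sly-miR166c-3p, with 4.

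The miRNA* sequences that were listed with an abundance of at least 1 are shown because they differ between loci that carry the same miRNA. Each is written 5′ to 3′ in DNA letters beside the name of its miRNA, with capitals for bases that form neither a Watson-Crick nor a wobble pair when the strands are laid side by side with 2-nt 3′ overhangs:
stu-miR166a-5p, with ata-miR166d-3p: ggaatgTTgtctggCtcgagg
ata-miR166a-5p, with ata-miR166d-3p: ggaatgTTgtctggttcAagg
ata-miR166d-5p, with ata-miR166d-3p: ggaatgTTgtctggCtcgggg
ata-miR5168-5p, with ata-miR5168-3p: gggttgTTgtctggttcAagg
zma-miR166k-5p, with ata-miR5168-3p: ggattgTTgtctggCtcgggg
zma-miR166k-5p, with sly-miR166c-3p: ggaTtgTTgtctggCtcgggg

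All 5 miRNA* sequences were rare. Their abundance was 42 for stu-miR166a-5p, 20 for ata-miR166a-5p, 5 for ata-miR5168-5p, 4 for zma-miR166k-5p and 2 for ata-miR166d-5p, a sum of 73 against 198962 for the 5 miRNAs. The ratio of ata-miR166d-3p to its most abundant miRNA* was 4413, the highest of the 29 miRNA sequences that had a miRNA* of at least 1. The ratio was 1112 for ata-miR5168-3p, which ranked 3, and 634 for sly-miR166c-3p, which ranked 4. The 634 rests on zma-miR166k-5p, which is also listed as a miRNA* of ata-miR5168-3p. The other 26 sequences had ratios from 1 to 1866 with a median of 18.5. The 3 ratios of the members thus lay above that median, and 1 other sequence, gma-miR156o with an abundance of 1866 over a miRNA* of 1, ranked 2. Against the lowest miRNA* of at least 1 in place of the highest, ata-miR166d-3p again ranked 1, ata-miR5168-3p ranked 4 and sly-miR166c-3p ranked 8. A miRNA* of such low abundance makes the ratio imprecise. The abundance of ata-miR166d-3p was listed at 12 loci and its miRNA* of 42 at only 2 of them. Its ratio therefore belongs to no single locus.

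**Figure D2:**
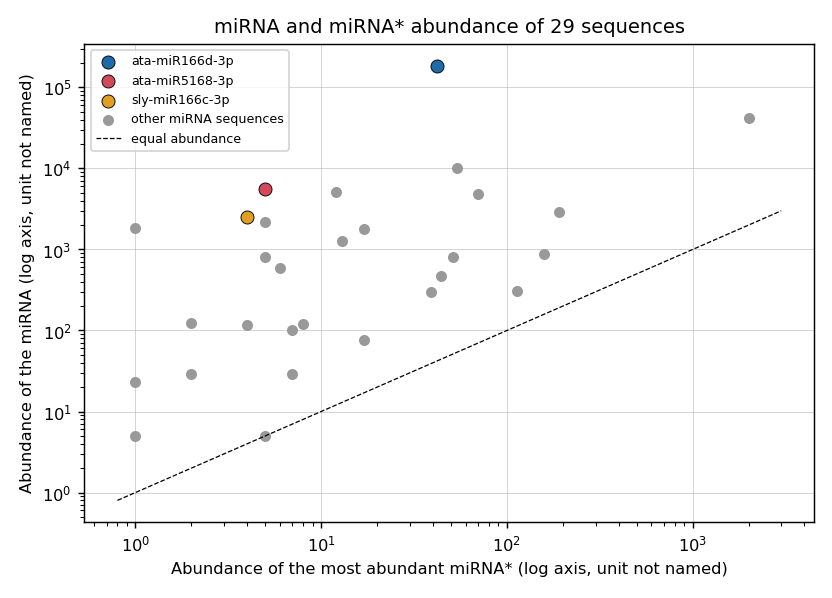
Abundance of each miRNA (vertical) against that of its most abundant miRNA* (horizontal), both on log axes with no named unit, for the 29 sequences with a miRNA* of at least 1. The coloured members lie above the line of equal abundance, with ata-miR166d-3p at 185355 over 42.

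The miRNA* abundance differed between loci of ata-miR166d-3p. It was 42 at the 2 loci with stu-miR166a-5p, 20 at the 2 loci with ata-miR166a-5p, 2 at the 4 loci with ata-miR166d-5p and 0 at 4 further loci. Of all 26 loci, 19 had a miRNA* of at least 1 and 7 had one at 0, whereas 73 of the 184 other loci (39.7%) had one of at least 1. All 12 member structures with a miRNA* at 0 gave it no miRBase name, and in the whole table no miRNA* at 0 had such a name. Whether a 0 means that the strand was not sequenced or only that it matched no miRBase entry is not stated.

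The members formed 11 distinct duplexes, and in 9 of them the miRNA was unpaired at positions 12 and 13, and position 12 was unpaired in all 11. Since atr-miR166b begins 2 nt further upstream, its unpaired positions 4, 8 and 12 are bases 2, 6 and 10 in the numbering of ata-miR166d-3p, so the base at position 12 of ata-miR166d-3p was unpaired in the other 10 only. A wobble pair lay at position 10 in 10 of the 11, the exception being atr-miR166b. With ata-miR166d-3p, both stu-miR166a-5p and ata-miR166d-5p left position 5 unpaired as well, whereas ata-miR166a-5p left position 2 unpaired. Against ata-miR166d-5p, counted from 1 at the 5′ end of the miRNA*, ata-miR166a-5p carried C15T, G18A and G19A, and stu-miR166a-5p carried G19A alone. The change C15T lies opposite position 5 of the miRNA and G18A opposite position 2. The unpaired position near the 5′ end of the miRNA thus differed with the miRNA*, while the mature strand was the same. The miRNA* sequences of miR5168 differed in the same way, with position 2 unpaired by ata-miR5168-5p and position 5 by zma-miR166k-5p.

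The miRNA and the miRNA* sequences of miR5168 changed at the facing positions 16 and 4. Relative to ata-miR166d-5p, zma-miR166k-5p carried A4T only, and ata-miR5168-5p carried A4T together with A3G, C15T, G18A and G19A. Position 4 of the miRNA* lies opposite position 16 of the miRNA, where ata-miR5168-3p has T16A, so both miRNA* sequences of miR5168 formed a Watson-Crick pair there. The other changes of ata-miR5168-5p faced unchanged bases of the miRNA, and A3G left a wobble pair at position 17. The change C21T of the miRNA lay in its overhang. When the sequences were exchanged, ata-miR5168-3p had 4 mismatches with each of the 3 miRNA* sequences of ata-miR166d-3p and 3 with each of its own. Likewise ata-miR166d-3p had 4 mismatches with each miRNA* of miR5168 and 3 with each of its own that was listed by name. These counts were made here. The deposited count of ata-miR166d-3p with ata-miR166a-5p was 4, and exchanged pairs had no deposited count. The duplex energy of ata-miR5168-3p, computed with RNAcofold, was -24.5 and -23.1 kcal/mol with its own miRNA* sequences and lay between -21.2 and -19.2 kcal/mol with those of ata-miR166d-3p. For ata-miR166d-3p it lay between -25.1 and -23.1 kcal/mol with its own and was -21.8 and -19.9 kcal/mol with those of miR5168. Each of these 2 miRNAs thus had a lower duplex energy with every named strand it was listed with than with those of the other. The listed pairs came from hairpins in which the authors had evaluated the pairing, so this order is a description and no independent result.

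The sequence sly-miR166c-3p, which lacks the T16A change, was nonetheless listed with zma-miR166k-5p. Its duplex had mismatches at positions 5, 12, 13 and 16 and an energy of -20.3 kcal/mol. Laid against the miRNA* sequences of ata-miR166d-3p it would have had 3 mismatches with each and energies from -25.5 to -23.5 kcal/mol, but none of these was listed at its loci. The table itself counted 5 mismatch positions for sly-miR166c-3p, the highest number among the 25 member loci with a listed pairing, and called all 4 of its loci miRNA-like. Of these 25 loci, 21 were called miRNA candidate.

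Other miRNA* strands had no name and an abundance of 0. They are shown for lus-miR166b, for atr-miR166b and for the loci of ata-miR166d-3p on Chr09K and Chr09N, with capitals as above:
with lus-miR166b: ggAatgTTgtctggtcGgaga
with atr-miR166b: aatggagGctgAtccAagatc
with ata-miR166d-3p, Chr09K:27473769-27473875: ggaatgTCgtctggCGcgaga
with ata-miR166d-3p, Chr09N:57556398-57556504: ggaatgTCgtctggAGcgaga
with ata-miR166d-3p, Chr09N:10405209-10405313: ggaatgaCgtcCggtccgaag

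In lus-miR166b the changed base T17C was unpaired with its miRNA*, as were positions 3, 12 and 13, for 4 mismatches in all. The duplex of atr-miR166b had 3 mismatches at positions 4, 8 and 12, and had the highest energy of the 11 pairs at -18.9 kcal/mol. The lowest energy was -27.5 kcal/mol for ata-miR166d-3p with the strand at Chr09N:10405209-10405313, which left only positions 8 and 12 unpaired. The mismatch counts made here equalled those of the table in 9 of the 11 pairs. In the other 2, sly-miR166c-3p with zma-miR166k-5p and ata-miR166d-3p with ata-miR166a-5p, the table counted 1 more, namely 5 and 4. For 1 locus of ata-miR166d-3p, Chr04K:50245748-50245861, the table marked the partner strand as too long and called the structure a bad sequence.

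**Figure D3:**
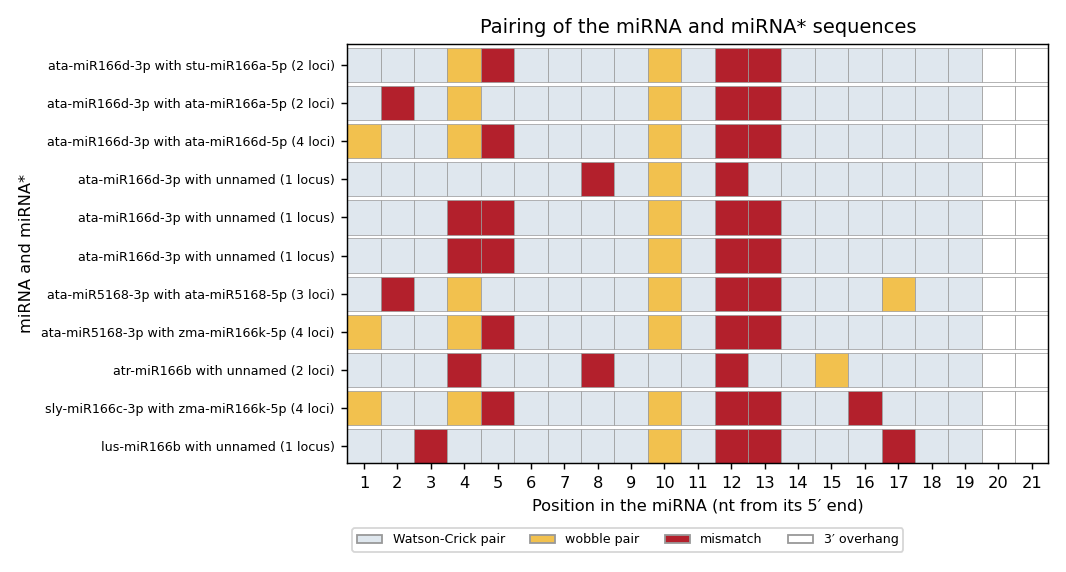
Pairing class at each miRNA position (horizontal, nt from the 5′ end) for the 11 distinct duplexes (rows, with the number of loci). Position 12, counted from the 5′ end of each miRNA, is a mismatch in all 11 rows, and position 16 only for sly-miR166c-3p with zma-miR166k-5p.

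No bulge was listed in the 25 member loci with a pairing of at most 5 mismatch positions, whereas 73 of the 155 other loci with such a pairing (47.1%) had at least 1 nt in a bulge. The miRNA lay on the 3′ arm at 22 of the 26 member loci (84.6%) and at 74 of the 184 other loci (40.2%). The 4 exceptions were the loci of sly-miR166c-3p, where the miRNA precedes its miRNA* although its name is that of a 3p strand. Loci with 1 sequence in common are no independent observations, and these differences were not tested.

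All 4 loci of sly-miR166c-3p overlapped a locus of ata-miR5168-3p on the same strand. The pairs lay at Chr01N:86605235-86605547 and Chr01N:94475857-94476183 on the minus strand, at Chr01N:95538364-95538690 on the plus strand and at scaffold_520:21849-22161 on the minus strand, in coordinates of version 4.1 of the genome. In each pair the precursors overlapped by 71 nt, and zma-miR166k-5p had the same position in both precursors. A single stretch of DNA was thus listed as the miRNA* of the miRNA upstream and of the miRNA downstream. Along the strand the order was sly-miR166c-3p, zma-miR166k-5p and ata-miR5168-3p. The gap from sly-miR166c-3p to the miRNA* was 151 nt at Chr01N:95538364-95538690 and Chr01N:94475857-94476183, and 141 nt at the other 2 pairs. The gap from the miRNA* to ata-miR5168-3p was 63 nt in the first 2 named and 59 nt in the other 2. The miRNA nearer to the shared strand, ata-miR5168-3p, was also the one with fewer mismatches to it, 3 against 5 in the table.

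**Figure D4:**
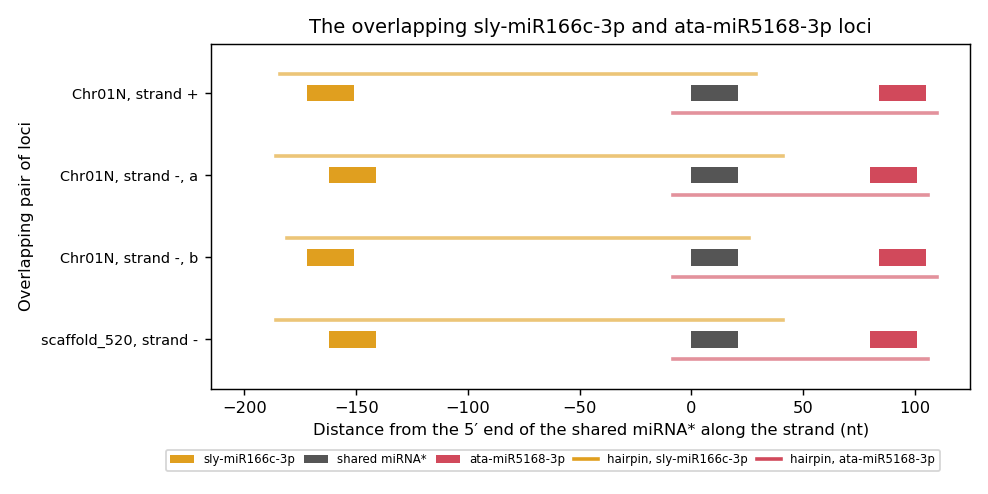
Positions of sly-miR166c-3p, the shared miRNA* (zma-miR166k-5p) and ata-miR5168-3p in the 4 overlapping pairs of loci, as distance along the strand from the 5′ end of the miRNA* (nt). Lines above and below mark the predicted hairpins, and a and b are the minus-strand pairs starting at 86605235 and 94475857. The miRNA* is in both hairpins of each pair, with sly-miR166c-3p 141 to 151 nt upstream of it and ata-miR5168-3p 59 to 63 nt downstream.

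The other 3 loci of ata-miR5168-3p, with ata-miR5168-5p as miRNA*, overlapped no other member. They lay at Chr02N:70150226-70150407, Chr02N:70586789-70586966 and Chr03K:4221211-4221392. The 2 on Chr02N were on the same strand and 436382 nt apart. The 2 ata-miR166d-3p loci on Chr04N, at 54324059 and 54382483, were on opposite strands and 58226 nt apart.

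By subgenome, the K chromosomes carried 8 member loci, the N chromosomes 15 and scaffolds 3, and the other loci were split 90 to 90 with 4 on scaffolds. With overlapping loci merged, the K minus N count of the members was -4 in place of -7, since 3 of the N loci were sly-miR166c-3p loci that overlap ata-miR5168-3p. The excess on N came with miR5168, which had 1 locus on K and 5 on N, and with sly-miR166c-3p, which had none on K and 3 on N. For ata-miR166d-3p there were 5 on K and 6 on N. Matched copies with the same miRNA and miRNA* on the K and N form of a chromosome were found 3 times. With stu-miR166a-5p they were Chr01K:65172843-65172979 (-73.8 kcal/mol) and Chr01N:77260391-77260536 (-74.0 kcal/mol). With ata-miR166a-5p they were Chr09K:11721361-11721513 (-79.3 kcal/mol) and Chr09N:25007443-25007597 (-82.0 kcal/mol). For atr-miR166b they were Chr03K:56747674-56747805 (-62.6 kcal/mol) and Chr03N:36248841-36248972 (-64.4 kcal/mol). The predicted energy was lower in the N copy each time, by 0.208 to 2.71 kcal/mol, beside an SD of 13.6 kcal/mol across the 26 loci. Per nucleotide of precursor it was lower in the K copy with stu-miR166a-5p, at -0.539 against -0.507 kcal/mol. With ata-miR166a-5p and for atr-miR166b it remained lower in the N copy per nucleotide. A further pair, the ata-miR166d-3p loci at Chr09K:27473769-27473875 and Chr09N:57556398-57556504, was 107 nt long in both, had -60.0 and -60.9 kcal/mol, and its miRNA* strands differed only by C15A.

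Copies with the same layout were also found away from matched chromosomes. The pair at Chr01N:86605235-86605547 and that on scaffold_520 had the same lengths, positions and energies, at -84.6 kcal/mol for sly-miR166c-3p and -88.1 kcal/mol for ata-miR5168-3p. The ata-miR5168-3p loci at Chr02N:70150226-70150407 and Chr03K:4221211-4221392 likewise had the same layout and -70.4 kcal/mol each. The ata-miR166d-3p loci at Chr04N:54382483-54382654 and scaffold_3563:4239-4410 shared their layout but had -86.5 and -83.8 kcal/mol. Whether a scaffold repeats part of a chromosome in this assembly was not tested, since precursor sequences were not analysed here.

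Member precursors measured 105 to 243 nt (median 155 nt), against 75 to 448 nt (median 137 nt) at the other loci. The predicted free energy, which is lower for a more stable fold, had a median of -80.4 kcal/mol in the members (-109.2 to -54.4), against -68.5 kcal/mol (-156.6 to -24.1) at the other loci. The lowest energies among the members were those of ata-miR166d-3p with ata-miR166d-5p, at -109.2 kcal/mol on Chr04N:54324059-54324257 and -103.3 kcal/mol on Chr01K:44725973-44726171, and they ranked 12 and 18 of the 210 loci. The highest was -54.4 kcal/mol for lus-miR166b on Chr09K:83532978-83533092, which ranked 178. Energies of this kind fall with length, and per nucleotide of precursor the median was -0.51 kcal/mol for the members and -0.48 kcal/mol for the others.

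Within the members, precursors with a miRNA* of at least 1 and those with a miRNA* at 0 did not overlap in length or energy. The 19 precursors with a miRNA* of at least 1 were 137 to 243 nt long, with energies from -109.2 to -70.4 kcal/mol. They carried only 5 miRNA* sequences and include the 4 overlapping pairs, so they are not independent. The 7 with a miRNA* at 0 were 105 to 132 nt long, with energies from -64.4 to -54.4 kcal/mol. Between miRNA and miRNA* there were 45 to 151 nt, with a median of 90 nt, in the 19. In the 7 there were 38 to 68 nt, with a median of 47 nt. The 7 include Chr04K:50245748-50245861, whose partner strand was marked as too long. Its gap of 47 nt, which is also the median, is therefore uncertain, whereas both ends of the range came from other loci. Per nucleotide the order of the energies was the other way, with medians of -0.51 and -0.55 kcal/mol. The other loci differed in the same direction but overlapped. Their precursors had a median of 156 nt (86 to 290) for the 73 with a miRNA* of at least 1 and 117 nt (75 to 448) for the 111 with a miRNA* at 0, and the median energies were -77.4 and -61.4 kcal/mol. Length, energy and a listed miRNA* thus went together in the members and, by their medians, in the other loci, and this was not tested.

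**Figure D5:**
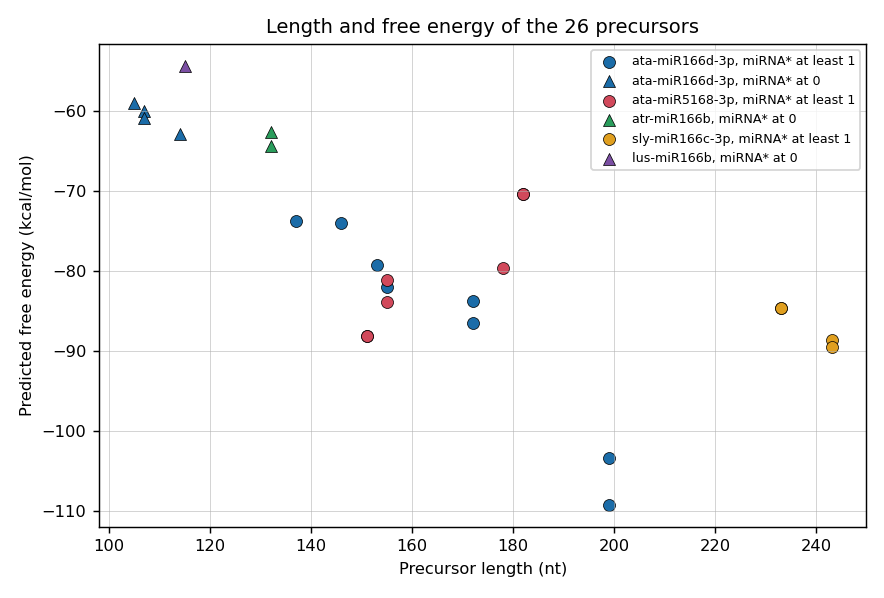
Predicted free energy (kcal/mol) against precursor length (nt) of the 26 member loci, coloured by miRNA sequence, with circles for a miRNA* of at least 1 and triangles for a miRNA* at 0. Triangles lie at 105 to 132 nt and circles at 137 to 243 nt, and 3 circles each stand for 2 loci with the same values.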

How the data were processed

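Small RNAs of 8 switchgrass libraries were analysed from the authors' table of predicted miRNA precursors. Adapters were removed by the authors, who aligned the reads with Bowtie (0.12.7 per the submitters' processing notes) against switchgrass genome version 4.1, took sequences of 20 to 24 nt that matched miRBase, evaluated pairing with modified miREAP and folded the precursors with UNAFold. The deposited abundances are whole numbers whose unit is not named and were treated as a score, as were the deposited free energies. Whether an energy covers the whole precursor or the hairpin alone is not stated, so it was divided by the precursor length.

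Each locus was counted once, by its more abundant arm (at 3 loci with equal arms, the arm that comes first in the table) and its most stable structure. No limit on mismatches, bulges or miRNA* abundance was set. Precursor length was taken from first to last coordinate. Pairing was scored on the listed sequences with 2-nt 3′ overhangs over 19 positions, with G:U counted as a wobble pair, and duplex energies were computed with RNAcofold (ViennaRNA 2.7.2). Locus selection and pairing were tested on simulated data. The simulated duplexes had no bulges and the same 2-nt overhangs as the scoring, so this checked the code and not that layout. Python 3.11.15, pandas 2.3.3, numpy 2.4.6 and matplotlib 3.10.9 were used.

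The text names every member sequence. The members, the families set beside them and the lists were chosen with earlier results of these data known. No tests were made, because the abundances are not given by library and loci are not replicates. The library totals stated by the study were not used here, since no deposited abundance belongs to a single library. Precursor sequences, targets and the RefSeq gene table, which is of another genome version, were not used here.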

Additional observations from a re-analysis of the deposited data

How the results depend on the processing

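No paired analysis was possible because no value is given by library, and no condition has a second one. Of 37 recomputed values, 26 stayed the same and 11 moved. For counts, the same meant within 1.5 times the value reported. For energies it meant within the 13.6 kcal/mol SD across loci, and for shares and ratios equal to 1 decimal. Only the K minus N count could change sign, and it did not. The 5 sequences became 3 where a miRNA* of at least 1 was required and 2 where sequences sharing their first 15 bases were counted once. The share of 70.8% became 70.9% within the limits of the methods on miRNA length, precursor length, mismatches and bulges. The further limits of the methods, such as those on abundance and genome hits, were not applied. The share was 71.4% with a miRNA* of at least 1, 70.7% for miRNA candidate calls only and 68.8% for miR166 alone. The K minus N count of -7 became -4 with overlapping loci merged. The 4 overlapping pairs became 0 with overlapping loci merged and 0 for miRNA candidate calls only, since merging leaves no overlap and all 4 sly-miR166c-3p loci were called miRNA-like. With the lowest miRNA* of at least 1, the ratio was 92677.5 for ata-miR166d-3p and 1390.5 for ata-miR5168-3p. The miRNA* values under these ratios are 2 and 4, so the ratios are imprecise.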
